A study of Mus musculus with 71 samples.

Results

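CBX7 was compared with RING1B, in the same wild-type (WT) embryonic stem cells (ESC), at 6326 genomic intervals, out of the 6326 that hold a value for both proteins in the deposited ESC tables. The intervals were joined on chromosome, start and end, and every one of them was kept. The question was which Polycomb targets carried much, and which little, CBX7 for the RING1B they held.

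Polycomb repressive complex 1 (PRC1) places ubiquitin on histone H2A through the RING1A or RING1B catalytic subunit, which all PRC1 forms share. In canonical PRC1 a CBX protein such as CBX7, the main one in ESC, binds H3K27me3, the mark laid down by Polycomb repressive complex 2 (PRC2), and the complex keeps developmental genes silent. Variant PRC1 holds RYBP or YAF2 in place of a CBX protein and reaches DNA by other routes. One variant, PRC1.6, contains MGA with MAX, which bind E-box sequences, and E2F6, and it silences germ cell genes in ESC.

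The series holds 71 samples of mouse J1 cells labelled WT, CaPS, mCaPS or KO for their CBX7, profiled by chromatin immunoprecipitation (ChIP) or CUT&RUN as ESC or after differentiation. The WT ESC libraries compared here are 3 of CBX7 and 3 of RING1B from undifferentiated cells at day 0, grown with LIF on a layer of mouse embryonic fibroblasts, one of each protein from experiments 1, 2 and 3. CaPS ESC, also at day 0 and grown in the same way, gave 3 libraries of each protein from the same 3 experiments; CaPS is CBX7 carrying the compaction and phase separation region of CBX2. Fibroblast feeders share the culture. No source says that the 3 experiments used independently grown cultures, so the spread that p-values rest on may be technical.

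WT CBX7 libraries held 13133721, 6136791 and 17677762 tags in experiments 1, 2 and 3, and WT RING1B libraries 7088455, 5240194 and 19179488. A tag is a mapped read as HOMER counts it, and levels below are tags in the interval per 10 M tags of the library. The intervals took 6.40%, 16.96% and 5.57% of CBX7 tags, against 6.57%, 19.34% and 9.45% of RING1B tags, so experiment 2 stood apart in both proteins with the highest share. The median interval rested on 14.5 to 19.5 CBX7 tags and 10.5 to 41.0 RING1B tags. The intervals were called on RING1B alone, per the name of the interval file in the headers, so a site bound by CBX7 without RING1B would not be seen, and RING1B had to stand out in each interval while CBX7 did not. The median interval was 1051.5 bp wide, and 69.8% of intervals lay within 1 kb of a gene start.

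The promoters of 4 germ cell genes that proved poor in CBX7 are shown first, because they hold CACGTG, the E-box that MGA with MAX is known to bind; a match describes the letters and is not a measured site. Each runs from 250 bases before to 50 bases after the start, from RefSeq, and the capitals mark the E-box. The promoter of Ehhadh, also poor in CBX7, and that of Man1c1, rich in CBX7, hold no such match and are shown for contrast.
Stag3 promoter, GRCm38.p6 chr5:138280259-138280558, plus strand: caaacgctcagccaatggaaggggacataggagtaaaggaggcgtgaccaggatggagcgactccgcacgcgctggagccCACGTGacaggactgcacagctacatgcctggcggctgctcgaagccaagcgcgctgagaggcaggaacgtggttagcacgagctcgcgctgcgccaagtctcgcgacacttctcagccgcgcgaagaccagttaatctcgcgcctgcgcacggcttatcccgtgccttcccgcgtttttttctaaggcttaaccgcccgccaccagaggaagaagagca
Stk31 promoter, GRCm38.p6 chr6:49395289-49395588, plus strand: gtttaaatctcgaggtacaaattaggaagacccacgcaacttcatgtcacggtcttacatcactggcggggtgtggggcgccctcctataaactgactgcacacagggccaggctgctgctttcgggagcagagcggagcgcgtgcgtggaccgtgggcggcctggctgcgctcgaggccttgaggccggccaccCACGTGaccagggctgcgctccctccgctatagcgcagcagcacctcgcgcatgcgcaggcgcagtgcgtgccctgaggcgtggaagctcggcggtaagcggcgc
Tdrd1 promoter, GRCm38.p6 chr19:56826025-56826324, plus strand: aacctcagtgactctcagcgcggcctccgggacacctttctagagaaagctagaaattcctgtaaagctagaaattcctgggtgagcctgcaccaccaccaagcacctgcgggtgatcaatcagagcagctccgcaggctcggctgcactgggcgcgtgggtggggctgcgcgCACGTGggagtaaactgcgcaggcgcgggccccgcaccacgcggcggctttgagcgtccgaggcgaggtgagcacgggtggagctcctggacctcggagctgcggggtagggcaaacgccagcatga
Mov10l1 promoter, GRCm38.p6 chr15:88982744-88983043, plus strand: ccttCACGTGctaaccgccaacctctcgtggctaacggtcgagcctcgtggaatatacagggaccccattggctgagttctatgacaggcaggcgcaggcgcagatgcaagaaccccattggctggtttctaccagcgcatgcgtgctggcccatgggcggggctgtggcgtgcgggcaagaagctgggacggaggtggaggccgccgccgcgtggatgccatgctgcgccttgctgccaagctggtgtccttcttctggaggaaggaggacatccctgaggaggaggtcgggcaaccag
Ehhadh promoter, GRCm38.p6 chr16:21787785-21788084, minus strand: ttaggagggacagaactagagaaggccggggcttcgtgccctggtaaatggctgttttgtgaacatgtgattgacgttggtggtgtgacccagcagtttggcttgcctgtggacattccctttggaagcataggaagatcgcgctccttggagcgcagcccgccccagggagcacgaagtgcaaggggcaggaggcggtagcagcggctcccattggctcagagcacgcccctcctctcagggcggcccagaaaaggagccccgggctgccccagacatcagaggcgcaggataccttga
Man1c1 promoter, GRCm38.p6 chr4:134704241-134704540, minus strand: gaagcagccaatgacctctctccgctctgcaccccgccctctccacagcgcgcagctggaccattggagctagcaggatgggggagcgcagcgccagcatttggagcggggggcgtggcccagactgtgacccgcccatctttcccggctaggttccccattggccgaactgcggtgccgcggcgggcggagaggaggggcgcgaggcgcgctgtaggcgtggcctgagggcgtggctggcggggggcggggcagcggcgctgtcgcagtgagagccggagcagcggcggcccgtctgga

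CBX7 followed RING1B closely over the intervals. Across the 6326 intervals, log2 CBX7 and log2 RING1B had a Pearson r of 0.96, 0.89 and 0.97 in experiments 1, 2 and 3, which describes these libraries, since all intervals share a library and its depth. Before any centring, the median interval had a CBX7 to RING1B ratio of 0.859, 0.577 and 0.584 in the 3 experiments. The antibodies differ, so an absolute ratio has no meaning of its own, and each experiment's log2 ratio was set to 0 at its median interval. A log2 ratio below 0 therefore means less CBX7 for the RING1B present than at the median interval of that experiment. The centred ratios spread most in experiment 2, with an SD of 1.19 over intervals, against 0.70 in experiment 1 and 0.53 in experiment 3.

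Most calls were on the low side. The test was limma with the experiment as a block and Benjamini-Hochberg adjustment over all intervals (threshold 0.05). It called 255 intervals, or 4.03%, poor in CBX7 for their RING1B and 16, or 0.253%, rich. An unadjusted p under the threshold was found at 1306. Its variance for each interval came mostly from a trend with mean level over all intervals (59.4 prior degrees of freedom). SEs and p-values of this test thus reflect intervals of like level more than the 3 ratios of 1 interval. The ratio had the called sign in all 3 experiments at 244 of the 255 CBX7-poor and at 16 of the 16 CBX7-rich intervals. The call itself favours such agreement. Over all intervals 21.8% lay below the median interval in all 3 experiments and 22.8% above it. Without experiment 2 the test called 53 poor and 35 rich, and without experiment 1 or 3 it called 3 and 2 rich. No interval was called in either direction when each experiment's ratio was first smoothed against RING1B level. The lowest limma adjusted p was then 0.0522, and 1094 had an unadjusted p under the threshold. All 255 kept a ratio below 0 and all 16 one above 0 in that fit. They were chosen by ratios of these same libraries, so their sign in a refit is nearly set in advance and supports no call. The counts were also 0 and 0 by limma without a trend in the variance, by DESeq2 with its filter on low means, and without the experiment as a block (841, 911 and 70 at an unadjusted p under the threshold), and 307 and 46 by edgeR.

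CBX7-poor intervals had a median of 7.75 tags of CBX7 per 10 M, against 56.0 of RING1B, and CBX7-rich intervals 179 of CBX7, against 164 of RING1B. Per kb of interval, CBX7-poor intervals held 6.57 tags of CBX7 and 47.1 of RING1B, where 10 M tags spread evenly over the genome would give 3.70. CBX7 there was thus low in density and RING1B was not, since the median density over all intervals was 16.8 for CBX7 and 33.6 for RING1B. The class was called on these same values, so the contrast describes it and is no further evidence. When intervals were cut into 4 bins of equal size by mean RING1B, the CBX7-poor ones numbered 0, 48, 179 and 28 in bins 1 to 4, and the CBX7-rich ones 0, 0, 3 and 13. In bin 1, with RING1B between 3.28 and 16.0 tags per 10 M, the counts limit what could be called.

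**Figure D1:**
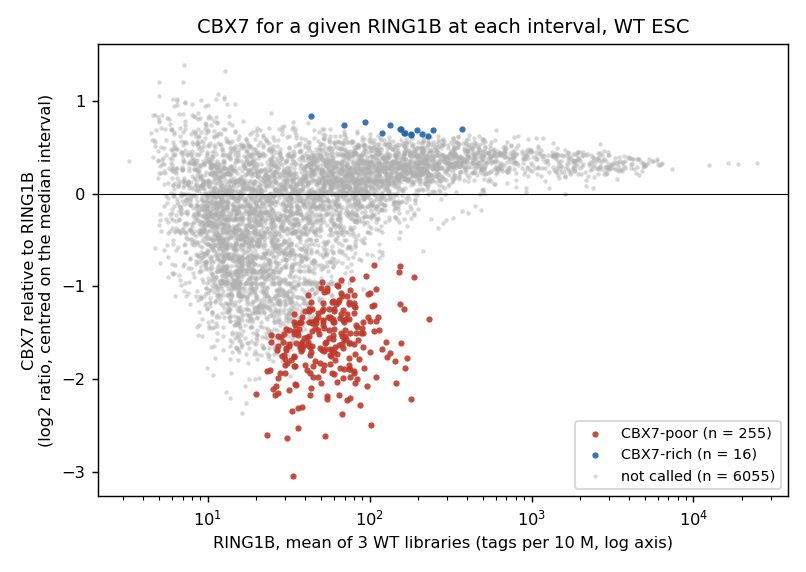
Each point is an interval, placed by its mean RING1B over 3 WT libraries (tags per 10 M, log axis) and by its centred log2 ratio of CBX7 to RING1B (mean of 3 experiments). The 255 CBX7-poor intervals (red) lie at middle RING1B levels, with a median of 56.0, and at the strongest intervals the ratios draw together near 0.3, which turns to values near -0.3 without centring.

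At the strongest RING1B intervals the ratio varied little from one interval to the next. The centred ratio had an SD over intervals of 0.31 in the bin with the most RING1B, against 0.65, 0.64 and 0.58 in bins 3, 2 and 1. Median CBX7 was 199 tags per 10 M in that bin, against 34.9, 9.07 and 4.8 in bins 3, 2 and 1, so counting error is larger in the lower bins, and its part in these SDs was not tested. The 5 intervals with the highest mean were assigned to Hoxa6, Mir196a-2, Hoxb5os, Hoxd11 and Dlx6os2, each a wide domain of 36775 to 129579 bp. The Hoxa6 interval (chr6:52150360-52268794, mm10) held 12943, 39781 and 12259 tags per 10 M of CBX7 in experiments 1 to 3, against 12697, 39103 and 22330 of RING1B. The tag values of CBX7 and RING1B were thus nearly level there in experiments 1 and 2, and that of CBX7 was lower in experiment 3. The Mir196a-2 interval, at a miRNA gene of the Hoxc cluster, held 10527, 29648 and 9345 of CBX7, against 10274, 29540 and 16981 of RING1B. The log2 ratios of the 5 were 0.33 for Hoxa6, 0.32 for Mir196a-2, 0.33 for Hoxb5os, 0.31 for Hoxd11 and 0.26 for Dlx6os2, and none passed the test (adjusted p 0.785 to 0.85). Their sign depends on the scale: without centring they lie between -0.34 and -0.27, and smoothed against RING1B level between -0.22 and -0.19.

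Genes of early development lay close to the ratio of these domains. Of 43 of 52 neural transcription factors with an interval, 1 (Hes5) was rich and 1 (Sox2) was poor. None was called in either direction of 51 of 58 mesoderm and endoderm factors, 18 of 19 Wnt ligands, 6 of 52 Hox genes and 5 of 7 cyclin-dependent kinase inhibitors. Over all 5385 genes with an interval 4.59% were poor and 0.297% rich, so no call in the shorter lists is near that share. The limma SE was 0.89 at the Hoxa6 interval, so a call there needed a large ratio. An interval carries the name of the nearest gene start, so a domain over a Hox cluster counts for 1 gene. The median log2 ratio was 0.30 for the neural factors, 0.26 for the mesoderm and endoderm factors, 0.36 for the Wnt ligands, 0.27 for the Hox genes and 0.33 for the kinase inhibitors, beside 0.01 over the 5385 genes with an interval. Smoothed against RING1B level, the medians of the neural, mesoderm and endoderm, and Hox lists turned to -0.13, -0.08 and -0.12, and those of the Wnt ligands and kinase inhibitors were 0.03 and 0.03. The RING1B level of these lists was high, with medians of 2080 for the neural and 1630 for the mesoderm and endoderm factors.

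Single genes show the values behind these ratios. The antibodies differ, so like tag numbers do not mean like amounts of the 2 proteins. Pax7, a regulator of neural crest and muscle precursors, had 3416, 10343 and 3004 tags per 10 M of CBX7 in experiments 1 to 3, against 3347, 10542 and 5270 of RING1B. Lhx2, a forebrain and eye regulator, had 3217, 8508 and 2657 of CBX7, against 3035, 8343 and 4642 of RING1B. In both genes the CBX7 tag value was close to that of RING1B in experiments 1 and 2 and lower in experiment 3. The log2 ratios were 0.33 ± 0.47 for Pax7 and 0.37 ± 0.44 for Lhx2 (limma SE, 3 experiments). Each SE rests mostly on the variance trend, not on the spread of that gene's 3 ratios. Pitx1, a regulator of hindlimb identity, had a log2 ratio of 0.37, and Wnt1 and Wnt5a, secreted ligands, of 0.44 and 0.35. Cdkn2a, the locus of the p16 and ARF tumour suppressors, had 0.21 and Cdkn2c had 0.33. Twist1 and Pdgfra, which mark fibroblasts, had 0.37 and 0.34.

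Hes5, a Notch target that restrains neuronal differentiation, was the neural factor called rich. It had 164, 396 and 136 tags per 10 M of CBX7 in experiments 1 to 3, against 129, 385 and 170 of RING1B. CBX7 was the higher in experiments 1 and 2 and the lower in experiment 3, and relative to the median interval the ratio was above 0 in every experiment (0.57, 0.83 and 0.46; mean 0.62 ± 0.19 SE, limma adjusted p 0.0498). Without experiment 1 or 3 it was not called (adjusted p 0.29 and 0.204).

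Germ cell genes had the lowest median of the 12 lists. A list of 37 germ cell genes known as PRC1.6 targets had 27 with an interval. Of the 27, 10 were CBX7-poor (37.0%, against 4.59% of the 5385 genes with an interval) and none CBX7-rich (against 0.297%). The list's median log2 ratio was -1.22, and the medians within experiments were -0.59, -2.38 and -0.69. Smoothed against RING1B level, the median was -1.13. The ratio lay below the median interval in all 3 experiments at 13 of the 27 genes and above it at 2. The list was chosen with these results known, so its counts describe it and are no independent evidence.

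The members called fall into 3 sets by role. Stag3 and Smc1b encode subunits of the cohesin ring of meiosis, and Sycp1 encodes the transverse filament of the synaptonemal complex. Zcwpw1 encodes a reader of the histone marks that PRDM9 leaves at meiotic recombination sites, and Brdt a bromodomain protein of the testis. Ddx4, Mov10l1, Piwil2, Tdrd1 and Stk31 encode a helicase of germ cells, a helicase of the piRNA pathway, a PIWI protein and 2 Tudor domain proteins.

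Stag3 (interval chr5:138279792-138281343, mm10, at the promoter) had 7.23, 36.7 and 10.8 tags per 10 M of CBX7 in experiments 1 to 3, against 21.2, 408 and 68.3 of RING1B. CBX7 was below RING1B in each experiment, as at the median interval before centring, and most in experiment 2. The 3 libraries of each protein overlap. Its CBX7 was 3.68-fold lower for its RING1B than at the median interval (log2 ratio -1.88 ± 0.27 SE, limma adjusted p 3.86e-06). Zcwpw1 (chr5:137787280-137788807, in an intron near the start) had 13.3, 32.6 and 14.7 of CBX7, against 31.0, 400 and 79.5 of RING1B, a ratio 3.41-fold lower than the median interval's (-1.77 ± 0.26, adjusted p 5.76e-06). In experiment 2 Stag3 and Zcwpw1 thus had about the RING1B of Hes5 and far less CBX7. In experiments 1 and 3 their RING1B was also well below that of Hes5 (129 and 170). With any 1 experiment left out both stayed called, at adjusted p of 0.000605 or less.

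Ddx4 (chr13:112651481-112652978) had 4.19, 13.0 and 5.66 tags per 10 M of CBX7 in experiments 1 to 3, against 23.3, 131 and 19.0 of RING1B (log2 ratio -1.75 ± 0.36 SE, limma adjusted p 0.0011). The 2 sets of libraries do not overlap, as at 12.4% of all intervals, and the call held with any 1 experiment left out (adjusted p 0.000213 to 0.0417). Mov10l1 had 11.0, 5.7 and 6.79 of CBX7, against 25.4, 134 and 20.6 of RING1B, also without overlap (log2 ratio -1.71, adjusted p 0.00257). Without experiment 2 the Mov10l1 ratio was -0.80 and was not called (adjusted p 0.249). The Stk31 ratio was -0.52, -2.67 and -1.07 in experiments 1 to 3, and the Smc1b ratio was -0.36, -2.50 and -0.82, so both lay below the median interval in each experiment and far below it in experiment 2. Without experiment 2 neither was called, with ratios of -0.79 for Stk31 (adjusted p 0.245) and -0.59 for Smc1b (0.425). Of the 10 members called, 3 (Stag3, Zcwpw1 and Ddx4) stayed called without experiment 2, and 7 did not. Brdt was the last interval called (log2 ratio -1.47, adjusted p 0.0498), and Tmco3, no member of the list, was the first not called (-1.55, adjusted p 0.0512).

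Not every germ cell target was poor in CBX7. Cpeb1, which encodes a translation factor of oocytes, had 156, 315 and 125 tags per 10 M of CBX7, against 165, 384 and 146 of RING1B. Its log2 ratio was 0.40 and was not called (adjusted p 0.225). Meioc, needed for meiotic prophase, had 53.3, 125 and 45.8 of CBX7, against 71.2, 407 and 63.1 of RING1B (log2 ratio -0.26, adjusted p 0.486), and only experiment 2 showed a wide gap. Dazl, an RNA-binding protein of germ cells, had a log2 ratio of -1.33 on few tags and was not called (adjusted p 0.272).

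**Figure D2:**
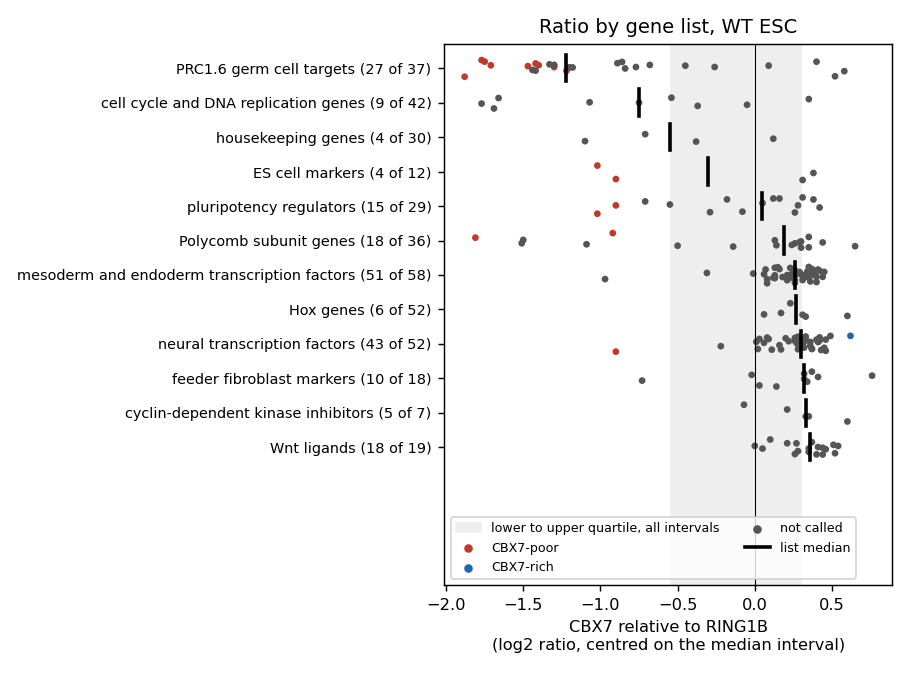
Each point is a gene of the named list at its strongest interval, placed by its centred log2 ratio of CBX7 to RING1B (mean of 3 WT experiments); the black bar is the list median, the grey band the range from the lower to the upper quartile of all intervals, and in brackets stand the genes with an interval of those in the list. The germ cell list has a median of -1.22 and 10 CBX7-poor members, and the developmental lists cluster near 0.3 on this scale, with medians below 0 on the deposited scale and, for the neural, mesoderm and endoderm, and Hox lists, after smoothing against RING1B level.

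Of 36 Polycomb subunit genes 18 had an interval, 2 were CBX7-poor (Mga and Aebp2; 11.1%, against 4.59% of all genes with an interval) and none CBX7-rich (against 0.297%), with a list median of 0.19. Mga, the scaffold of PRC1.6, had 6.85, 24.4 and 14.4 tags per 10 M of CBX7 in experiments 1 to 3, against 18.3, 341 and 68.8 of RING1B, which puts CBX7 3.51-fold lower than at the median interval (log2 ratio -1.81 ± 0.28 SE, limma adjusted p 1.98e-05). Aebp2, a PRC2 cofactor, had 10.7, 39.1 and 13.3 of CBX7, against 21.2, 171 and 40.4 of RING1B (-0.92 ± 0.27, adjusted p 0.0341). CBX7 was below RING1B in every experiment at both, as it was at the median interval before centring. The Mga call held with any 1 experiment left out (adjusted p 2.75e-08 to 0.00632) and the Aebp2 call with none (0.0694 to 0.22). At the wide domains of Cbx8, another CBX subunit, and Bmi1, a PCGF subunit of canonical PRC1, the log2 ratios were 0.35 and 0.30. Cbx8 had 2880, 9181 and 2833 of CBX7, against 2865, 9082 and 4822 of RING1B, the pattern of the developmental genes.

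Of 29 pluripotency regulators 15 had an interval, with a median of 0.05. Of these, 2 were CBX7-poor (13.3%, against 4.59% of all genes with an interval) and none CBX7-rich (against 0.297%). Sox2, a core factor of the pluripotent state and of neural precursors, had 32.7, 90.4 and 44.7 tags per 10 M of CBX7, against 72.7, 384 and 111 of RING1B (log2 ratio -0.90 ± 0.21 SE, limma adjusted p 0.00364), at an interval of 4932 bp (chr3:34650654-34655585) centred 3124 bp past the gene's start. Utf1, a chromatin-bound factor of ESC, had 9.90, 22 and 8.20 of CBX7, against 23.3, 117 and 21.9 of RING1B (-1.02 ± 0.31, adjusted p 0.0483). CBX7 was the lower protein in every experiment at both genes, as it was at the median interval before centring. The Sox2 call held with any 1 experiment left out (adjusted p 0.0123 to 0.0482), and the Utf1 call was lost without experiment 1 or 2 (0.195 and 0.316). Otx2 and Tbx3, the strongest of the list, lay at 0.16 and 0.26, and the ES cell markers Esrrb and Klf4 at 0.31 and 0.38.

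Housekeeping genes, cell cycle genes and markers of fibroblasts and ES cells were also looked up. The share of all mouse genes with an interval was not computed, so how many of each list had one is not read as few or many. For the counts that follow, 4.59% of all genes with an interval were poor and 0.297% rich, so none called in 4 to 10 genes is near that share. Of 30 housekeeping genes 4 had an interval and none was called, with a median log2 ratio of -0.55, and -0.38 at B2m and -0.71 at Gusb. Of 42 cell cycle and DNA replication genes 9 had one and none was called, with a median of -0.75; Ccnd2, a D-type cyclin in a wide domain, had a log2 ratio of 0.35 and Ccnd1, another, -0.37. An interval at a cell type marker shows PRC1 there, not expression of the gene. Of 18 fibroblast markers 10 had an interval and none was called, with a median of 0.32. Summed over these 10, CBX7 ranged from 2310 to 6820 tags per 10 M and RING1B from 2430 to 7190. The part of feeder chromatin in these values was not tested. Of 12 ES cell markers 4 had an interval and 2 (Sox2 and Utf1) were CBX7-poor; RNA was not measured, so the labelled cell type could not be checked by expression.

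The lowest ratios were at genes of varied function. Among called intervals with the same sign in all 3 experiments and a mean of at least the lower quartile, the 10 lowest ratios were at Smarcd2, Mir3569, Slc38a9, Jakmip1, Ehhadh, Gm17399, Ugp2, Ldah, Ptma and Usp47, with log2 ratios of -3.04, -2.64, -2.61, -2.60, -2.53, -2.49, -2.38, -2.34, -2.30 and -2.28. Slc38a9, an amino acid sensor of the lysosome, had 0.76, 6.52 and 2.55 tags per 10 M of CBX7, against 11.3, 124 and 23.2 of RING1B. Smarcd2, a subunit of the BAF chromatin remodeller, had 0.76, 0 and 4.24 of CBX7, against 12.0, 70.6 and 18 of RING1B. Here CBX7 was at a few tags or fewer, under the 3-tag floor of 2.28 and 4.89 in experiments 1 and 2 for Smarcd2, so the size of its ratio depends on the pseudocount of 1. Without experiment 2 the calls of Mir3569 (-1.65, limma adjusted p 0.181), Jakmip1 (-1.45, 0.239), Ptma (-1.28, 0.222) and Ldah (-1.89, 0.0743) were lost, and the Smarcd2 ratio was -1.87 (0.0317). Without experiment 3 the calls of Jakmip1 (0.0815) and Ldah (0.061) were lost.

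The lowest adjusted p was that of Gm17399 (chr9:118149823-118151364), a predicted gene. It had 6.09, 11.4 and 6.79 tags per 10 M of CBX7, against 29.6, 215 and 62.6 of RING1B, with no overlap between the proteins and CBX7 5.62-fold lower than at the median interval (log2 ratio -2.49 ± 0.31 SE, limma adjusted p 1.4e-07). Usp47, a deubiquitinase, had 7.61, 11.4 and 3.39 of CBX7, against 19.8, 198 and 43.5 of RING1B. Ugp2, which makes UDP-glucose, had 1.9, 8.15 and 9.33 of CBX7, against 26.8, 144 and 32.1 of RING1B. At Ehhadh, a peroxisomal enzyme of fatty acid oxidation, CBX7 was 0, 4.89 and 5.37, against 13.4, 72.5 and 22.4 of RING1B. In all 4 the proteins' libraries do not overlap, as at 12.4% of all intervals. These 4 were picked for their low ratios, which favours such a gap.

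The median width was 3109 bp for the CBX7-rich and 1163 bp for the CBX7-poor intervals. The promoter annotation that the authors deposited was carried by 0% of the rich, 62.7% of the poor and 31.6% of all intervals. That annotation goes by an interval's centre, so a wide interval can cover a start without it, and 68.8% of the rich, 88.2% of the poor and 69.8% of all intervals had their centre within 1 kb of a start. Under the same conditions the 10 highest ratios were at Cited4, Mycl, Man1c1, Col15a1, Caln1, Ptprm, Sowaha, Osbpl6, Npr1 and Pde3b, with log2 ratios of 0.84, 0.77, 0.74, 0.74, 0.70, 0.70, 0.69, 0.68, 0.68 and 0.65. Mycl, a member of the Myc family, had 46.8, 174 and 47.0 tags per 10 M of CBX7, against 29.6, 210 and 42.2 of RING1B. Cited4, a transcriptional co-activator, had 38.5, 87.2 and 34.2 of CBX7, against 25.4, 60.1 and 44.3 of RING1B. In both genes the libraries overlap and CBX7 was higher than RING1B in some experiments only, and the call rests on ratios above the median interval in all 3 experiments. Each of these 10 lost its call with at least 1 experiment left out, and Col15a1, Caln1 and Pde3b lost it with any. Without centring no interval was called rich.

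**Figure D3:**
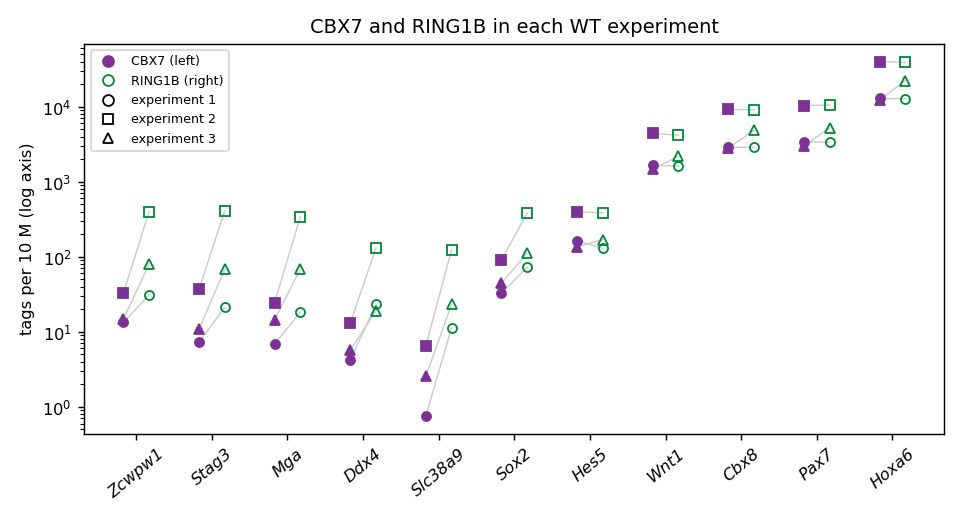
Tags per 10 M (log axis) of CBX7 (filled, left) and RING1B (open, right) at 11 genes, with 1 symbol for each of 3 WT experiments and a line joining the 2 proteins of an experiment. At Zcwpw1, Stag3, Mga, Ddx4, Slc38a9 and Sox2 every line climbs from CBX7 to RING1B, and at Hes5, Wnt1, Cbx8, Pax7 and Hoxa6 the lines of experiments 1 and 2 are almost level or fall.

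Of the CBX7-poor intervals 30 (11.8%) overlapped an H3K27me3 ChIP peak of ESC, which the ratio did not use, against 14 of 16 CBX7-rich intervals (87.5%) and 42.3% of those not called. With H3K27me3 CUT&RUN, another assay, the shares were 14.1%, 87.5% and 56.3%. RING1B CUT&RUN peaks overlapped 96.1% of the CBX7-poor intervals, 100% of the CBX7-rich and 83.2% of those not called. Nearly all CBX7-poor intervals thus had RING1B in a second assay, and most had no H3K27me3 peak. Peak overlap depends on interval width and peak calling, and no test of these shares was run.

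Shares were also taken within bins of mean RING1B, which is also part of the ratio. Median RING1B was alike in bin 3, at 58.3 tags per 10 M in the poor and 58.0 in those not called. In bin 4 it was 127 in the poor, against 238, so that bin is not at like RING1B. In bin 3 by RING1B level, 11.7% of the 179 CBX7-poor intervals overlapped an H3K27me3 ChIP peak, against 50.5% of the 1399 not called, and in bin 4 the shares were 25% of 28, against 87.6% of 1541. Bin 4 held 13 of the 16 CBX7-rich intervals, and 92.3% of the 13 overlapped such a peak. With H3K27me3 CUT&RUN the bin 4 shares were 92.3% for the rich and 94.5% for those not called. The rich shares were thus near those of intervals not called in that bin. RING1B CUT&RUN overlapped 97.8% in the poor and 95.6% in the others of bin 3. The CBX7-poor intervals were the narrower in bin 3, with a median of 1198 bp, against 1589 bp, and in bin 4, with 1831.5 bp, against 3824 bp. Of the 27 germ cell genes with an interval, 12 overlapped an H3K27me3 ChIP peak, a share near the 43.5% of all genes with an interval, and of the 43 neural factors 42 did. Of the 10 members called CBX7-poor, Zcwpw1, Smc1b, Stk31, Tdrd1, Mov10l1, Ddx4 and Sycp1 overlapped such a peak, and Stag3, Piwil2 and Brdt did not. Most of the called members thus overlapped an H3K27me3 ChIP peak, where 11.8% of all CBX7-poor intervals did. With H3K27me3 CUT&RUN this did not hold, as only Smc1b, Tdrd1, Ddx4 and Sycp1 of the called members overlapped a peak. By that assay 14.1% of all CBX7-poor intervals did, and 10 of the 27 germ cell genes, beside 54.7% of all intervals. Mga and Sox2, also CBX7-poor, overlapped none.

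**Figure D4:**
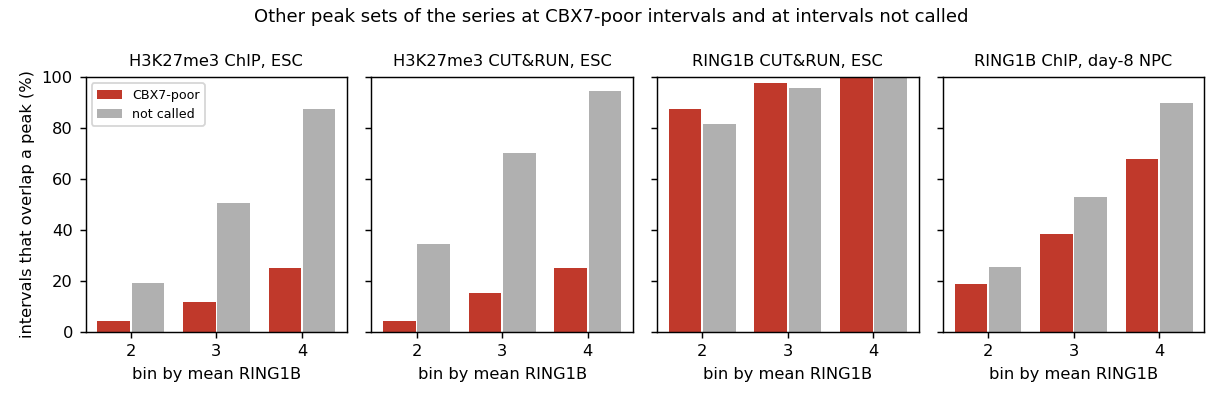
Share of intervals (%) that overlap a peak of 4 other sets, for CBX7-poor intervals (red, left) and intervals not called (grey, right) in bins 2, 3 and 4 by mean RING1B; bin 1 held 0 CBX7-poor intervals. The H3K27me3 shares of the poor intervals stay at or under 25% and the RING1B CUT&RUN shares lie at 87.5% or above.

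After 8 days of differentiation to neural progenitors (NPC), RING1B ChIP peaks overlapped 38% of the CBX7-poor intervals, 87.5% of the CBX7-rich and 46.0% of those not called. In bin 3 the shares were 38.5% for the poor and 53.1% for those not called. In bin 4, which held 13 of the 16 CBX7-rich intervals, they were 67.9% for the poor, 100% for the rich and 89.8% for those not called. The wide gap between the rich and those not called was thus not seen within bin 4. Of the 27 germ cell genes 7 overlapped a day-8 peak, against 42 of 43 neural factors.

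Of the intervals, 2803 held the RefSeq promoter of their own gene, 177 of them CBX7-poor, and 4 motifs were searched on both strands. CACGTG, the E-box, stood in 23.7% of CBX7-poor promoters, against 11.2% of 2617 not called and 7.20% of all 32851 RefSeq promoters of the same length. CCGGAAG, an ETS-like motif, stood in 19.2%, 8.40% and 8.90% of the same sets. GGCGGGA, an E2F6-like motif, stood in 26.6%, 21.7% and 11.3%, and GGGCGG, an SP1-like motif that can overlap it, in 67.2%, 68.2% and 35.7%. The E-box and ETS-like shares were thus over 2-fold those of intervals not called and the SP1-like shares nearly the same, as descriptions with no test.

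Of 20 germ cell promoters inside an interval, 11 held the E-box, 5 the E2F6-like motif and 12 either. The Stag3, Stk31, Tdrd1 and Mov10l1 promoters printed above each hold 1 E-box and no E2F6-like motif. They have 30, 29, 25 and 20 CpG dinucleotides in 300 bases, against 14 in the Ehhadh and 31 in the Man1c1 promoter. Over whole classes the median ratio of observed to expected CpG was 0.84 in CBX7-poor promoters, against 0.73 in those not called, and the median GC content was 61.3%, against 64.0%.

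The CaPS libraries give the same measure in other cells. The CBX7-poor intervals had median centred ratios of -0.90, -1.38 and -1.20 in CaPS experiments 1 to 3, against -1.04, -2.55 and -1.03 in WT experiments. The ratio lay below the median interval in all 3 CaPS experiments at 196 of the 255 (76.9%), against 19.6% of all intervals. In CaPS experiment 3, the most deeply sequenced, it lay below at 254 of 255. CBX7-rich intervals had CaPS medians of 0.14, 0.24 and 0.49, against 0.48, 0.86 and 0.61 in WT. Of the 16, 9 (56.2%) lay above the median interval in all 3 CaPS experiments, against 19.0% of all intervals. In bin 4 by RING1B level, which held 13 of the 16, the share was 69.2% for the rich and 40.5% for all intervals of the bin. CaPS experiment 2 rested on 2629924 CBX7 tags and 2226242 RING1B tags, the fewest of all, and its median interval on 3.5 and 5.0 tags.

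**Figure D5:**
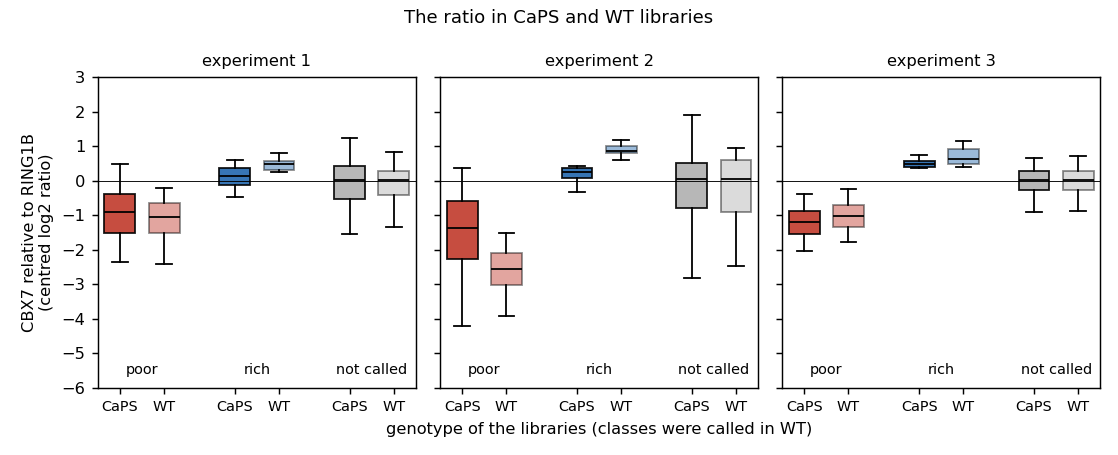
Centred log2 ratios of CBX7 to RING1B in CaPS (left of each pair) and WT libraries, by experiment, for intervals called in WT as CBX7-poor (n = 255), CBX7-rich (n = 16) or not called (n = 6055); boxes give the quartiles and median, whiskers the 5th and 95th percentiles. In each experiment the poor class has its median below 0 in both genotypes and the class not called has its median at about 0.

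No interval was called different between CaPS and WT ESC. By limma with the experiment as a block, 0 of 6326 (0%) were higher and 0 (0%) lower in CaPS at an adjusted p of 0.05, and 264 had an unadjusted p under that value. The lowest adjusted p, 0.71, was that of Zcwpw1, whose ratios were -3.28, -4.58 and -2.86 in CaPS, against -0.94, -2.78 and -1.58 in WT (CaPS minus WT -1.81 ± 0.39 SE). CaPS ratios were lower in each experiment there, and the difference did not pass the adjustment. Stag3 had -1.26, -1.73 and -2.65 in CaPS, against -1.21, -2.65 and -1.78 in WT (0.00 ± 0.40), and Mga -1.19, -2.82 and -1.76 in CaPS, against -1.08, -2.96 and -1.40 in WT (-0.11 ± 0.37). Hoxa6 differed by -0.07 ± 0.20 and Slc38a9 by 2.94 ± 0.72 (adjusted p 0.943). A difference that misses the threshold does not show that the genotypes are alike.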

How the data were processed

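ChIP-seq was run by the authors on mouse J1 ESC with Drosophila spike-in chromatin, per the labels' protocols; HOMER 4.10.4, SAMtools 1.9, Bowtie2 2.3.4.3, cutadapt 1.14 and the builds mm10 and dm6 are named, with no roles, in the submitters' processing notes. The deposited values are a signal, tags in the interval per 10 M, per the file headers, which also give each library's total tags; no source says whether the totals include spike-in tags. Value times total gave whole read ends of 0.5 tag for 100% of values (tolerance 0.1 read end), and these tags were used in the count alternatives. Replicate numbers pair libraries because the series' design text ties comparisons to experiments done together; deviations of same-numbered CBX7 and RING1B libraries from their group means had correlations of 0.23, -0.08 and 0.06, and those of differently numbered ones ranged from -0.30 to 0.24, so the values do not show the pairing and it rests on the design text alone. Each experiment's log2(value + 1) ratio was centred on its median over 6326 intervals and tested with limma 3.58.1 (R 4.3.3, eBayes with trend, experiment as a block). A fold on this scale understates the change of low intervals. The test was also run on simulated data with a fixed dispersion and ratios set without regard to level. The measured ratios correlated with mean level (r 0.29, 0.56 and 0.20 in experiments 1 to 3), so that run supports no call here. Genes named were the 10 lowest and 10 highest called ratios with the same sign in 3 experiments and a mean of at least 11.2 tags per 10 M, the 5 strongest intervals, and up to 4 of the strongest genes of each list; called list members outside this rule, and Tmco3 and Dazl, were chosen after their values were seen, and 1 gene is not reported here. Members and gene lists were chosen with earlier results of these data known. A gene counts at its strongest interval within 10 kb; 13 gene names written as dates were restored by Entrez ID. Overlap means 1 shared base or more. Promoters come from RefSeq on GRCm38.p6, matched by symbol. Alternatives were edgeR 4.0.16, DESeq2 1.42.0, other scalings, pseudocounts and filters, and leaving out each experiment. Also, 2 further columns of per-sample values in these tables were not used. Peak sets without replicates were described only.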

Additional observations from a re-analysis of the deposited data

How the results depend on the processing

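The count of CBX7-poor intervals (255 as reported) was 366 with a pseudocount of 0.1, 117 with a pseudocount of 5, 117 among the 3163 intervals of highest mean (where 166 of the 255 were tested), 307 with edgeR and 53 to 251 without 1 experiment. The count of CBX7-rich intervals (16) was 57, 0, 40, 46 and 2 to 35 under the same settings. Centring matters: on the deposited scale, where the median interval lies at -0.59, 1224 were poor and 0 rich, and with equal sums over the intervals, where it lies at -0.28, 115 and 0. Counts were 0 and 0 with limma without trend (lowest adjusted p 0.297, 841 at an unadjusted p under 0.05), with DESeq2 (0.0753, 911; its filter left 5273 intervals with no adjusted p), and with the ratio smoothed against RING1B level. Without the filter, an alternative chosen after seeing the data, DESeq2 called 17 poor, all among the 255, and 0 rich. Without the replicate block, which pairs the libraries of an experiment, 0 and 0 were called (lowest adjusted p 1, 70 at an unadjusted p under 0.05), since differences between experiments then enter the error. Of the 255, 239 were called by edgeR, and 184, 52 and 191 without experiment 1, 2 and 3. All 255 kept a ratio below 0 in every fit that tested them all, which their choice by these same values nearly sets in advance. Of 35 called genes named in the report, 33 stayed called with edgeR, 16 with a pseudocount of 5, and 22, 18 and 22 without experiment 1, 2 and 3. CaPS minus WT gave 0 calls in every setting other than without experiment 2, where it gave 3.

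Log2 ratios of genes and medians of lists that changed sign, none of the genes called, were as follows. On the deposited scale, they were Hoxa6 -0.27, Mir196a-2 -0.27, Hoxb5os -0.27, Hoxd11 -0.28, Dlx6os2 -0.34, Cpeb1 -0.20, Pax7 -0.27, Lhx2 -0.23, Pitx1 -0.22, Wnt1 -0.15, Wnt5a -0.25, Cbx8 -0.25, Bmi1 -0.30, Otx2 -0.44, Tbx3 -0.34, Cdkn2a -0.38, Cdkn2c -0.27, Ccnd2 -0.25, Pdgfra -0.26, Twist1 -0.22, Esrrb -0.29, Klf4 -0.22, Hox genes -0.33, neural transcription factors -0.30, mesoderm and endoderm transcription factors -0.33, Wnt ligands -0.24, Polycomb subunit genes -0.40, pluripotency regulators -0.54, cyclin-dependent kinase inhibitors -0.27, feeder fibroblast markers -0.28. Smoothed against RING1B level, they were Hoxa6 -0.22, Mir196a-2 -0.21, Hoxb5os -0.19, Hoxd11 -0.20, Dlx6os2 -0.22, Pax7 -0.15, Lhx2 -0.10, Pitx1 -0.08, Wnt5a -0.06, Cbx8 -0.12, Bmi1 -0.16, Otx2 -0.27, Tbx3 -0.16, Cdkn2a -0.17, Cdkn2c -0.05, Ccnd2 -0.04, Pdgfra -0.05, Hox genes -0.12, neural transcription factors -0.13, mesoderm and endoderm transcription factors -0.08, Polycomb subunit genes -0.03, pluripotency regulators -0.25. With equal sums, they were Dlx6os2 -0.01, Otx2 -0.11, Tbx3 -0.01, Cdkn2a -0.05, Polycomb subunit genes -0.09, pluripotency regulators -0.21. Among those 3163 intervals, they were Otx2 -0.05, pluripotency regulators -0.16. With a pseudocount of 5, the pluripotency regulators had -0.04. With 1 experiment left out, Meioc ranged from -0.55 to 0.07, Otx2 from -0.06 to 0.33, Cdkn2a from -0.03 to 0.42 and the pluripotency regulators median from -0.05 to 0.06. With genes within 2 kb of the start, the ES cell markers had 0.31. No cause of these changes was tested beyond what each setting's construction gives. Few tags limit what can be called in the bin with the least RING1B.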

Other observations

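Further germ cell genes outside the list stood among the 255 CBX7-poor intervals; they were picked after their values were seen and support nothing. Syce2 and Tex12, parts of the central element of the synaptonemal complex, had 9.14, 26.9 and 10.5 tags per 10 M of CBX7 against 24, 287 and 32.1 of RING1B, and 9.52, 11.4 and 7.07 of CBX7 against 22.6, 165 and 36.0 of RING1B, in experiments 1 to 3. Spata22, needed for meiotic recombination, had 12.6, 15.5 and 7.92 of CBX7, against 24.7, 171 and 44.1 of RING1B. Henmt1, which methylates the ends of piRNAs, had 4.57, 7.33 and 4.53 of CBX7, against 15.5, 94.5 and 13.0 of RING1B, and Tdrd12, a Tudor protein of the piRNA pathway, had 5.33, 6.52 and 7.35 of CBX7, against 16.9, 84.9 and 26.6 of RING1B. The log2 ratios were -1.47 for Syce2, -1.77 for Tex12, -1.62 for Spata22, -1.55 for Henmt1 and -1.65 for Tdrd12.

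Among the chromosomes, the 135 intervals of X had the highest median centred log2 ratio, 0.18, and the 389 intervals of chromosome 8 the lowest, -0.13. Smoothed against RING1B level, X had a median of 0.18 and chromosome 8 of -0.06, with chromosome 13 lowest at -0.10.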
